A study of Mus musculus with 3 samples.

Results

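Collagen and laminin chain genes were followed in cultured mouse inhibitory neurons during depolarization. The set held every gene whose symbol is Col or Lam with a chain number in the usual form, such as Col4a1 or Lamb2, which gave 50 genes of 25562 (40 collagen chains and 10 laminin chains). Of these, 18 (13 collagens and 5 laminins) had at least 20 exonic reads in 1 library and are described 1 by 1. The neurons came from the medial ganglionic eminence (MGE), an embryonic source of cortical interneurons, of C57Bl/6 mouse embryos at embryonic day 14, all labelled wild type (WT), and were 10 days in vitro. All cultures, the 0 h one included, were quieted overnight from day 9 with tetrodotoxin (TTX), which blocks sodium channels, and AP-5, which blocks NMDA receptors. Extracellular KCl was then raised to 55 mM to depolarize the membrane for 0, 1 or 6 h, and the stated aim was to identify genes induced by activity. Strand-specific total RNA sequencing gave 1 library for each of the 3 times, so neither a replicate error nor a p-value exists for any difference. Each interval below covers counting error only and takes each read as independent. Reads that are copies of 1 fragment would make it too narrow.

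Collagens are secreted or membrane-bound chains that wind around each other into a stiff helix. They assemble into fibrils, sheets, filaments or fibril coats depending on the type. Laminins are cross-shaped assemblies of an α, a β and a γ chain, and together with collagen IV they build the basement membranes that line the brain surface and its vessels. Neurons make few of these chains, but some collagens, such as the transmembrane collagen XXV and collagen XIX in mouse, are known from neurons.

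The 3 libraries held 2189394, 2457167 and 2480579 sense exonic reads at 0, 1 and 6 h, and the 50 chain genes took 0.0413%, 0.0380% and 0.0489% of them (905, 934 and 1213 reads). A count of 0 allows up to 3 reads, or 1.37, 1.22 and 1.21 RPM (reads per 1000000 sense exonic reads). Markers of MGE-derived interneurons summed to 5380, 5152 and 6845 RPM after scaling, and 15 of 16 list entries were found and measured. Astrocyte and radial glia markers were also present, at 2922, 3033 and 3452 RPM with 12 of 12 measured. Oligodendrocyte lineage markers summed to 167, 174 and 198 RPM with 6 of 10 measured, and 0 of 8 markers of excitatory neurons reached 20 reads. Of markers of cells known to make or remodel matrix, 0 of 10 endothelial ones reached 20 reads, as did 0 of 9 microglial ones. Of the 12 meningeal and fibroblast markers 4 reached it (Igfbp2, Pdgfra, Fbln1 and Ptgds), with a sum of 134, 127 and 173 RPM over the list, and Lum, Dcn, Foxd1, Aldh1a2 and Slc6a13 were at 0 reads in all 3 libraries. Of the 10 mural markers 3 reached it (Notch3, Pdgfrb and Tagln), with a sum of 54.9, 48.6 and 48.5 RPM, and Abcc9, Des and Anpep were at 0 reads throughout. The fibroblast collagen chains Col1a1, Col1a2 and Col3a1 had at most 7 reads in any library. In such bulk samples, fewer cells of a type and less RNA per cell cannot be told apart.

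After 6 h of KCl, 3 of the 18 measured chains were at least 2-fold higher than at 0 h: Col10a1 (collagen X), Col12a1 (collagen XII) and Lamc1 (laminin γ1). None was at least 2-fold lower, and 14 of the 17 that could be compared met neither condition. A gene was called when its ratio of scaled reads reached 2 or fell to 0.5, its 95% counting interval excluded 1, and 1 of the 2 libraries held 20 reads. Col10a1 and Col12a1 reached 20 reads only at 6 h. They thus entered the measured set, and its medians, only through the library where they were high. Col16a1, which was not called, also reached 20 reads only at 6 h. Over all 10095 genes compared in the same way, 4.92% were called higher and 5.42% lower. After 1 h, 0 of 15 chains were called higher and 1 lower (Col5a2), against 1.58% higher and 1.43% lower of all 10093 genes. The median log2 ratio of the 18 measured chains was 0.04 at 6 h and −0.20 at 1 h, beside −0.00 and 0.01 over all measured genes. Under scaling by total exonic reads the chains' median at 6 h was −0.06, where that of all genes was −0.10. Between 6 h and 1 h, 2 of 17 chains were called higher (Col10a1 and Col12a1) and 0 lower, against 4.17% higher and 4.63% lower of all 10137 genes. The 3 comparisons share libraries and are not independent of each other.

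**Figure D1:**
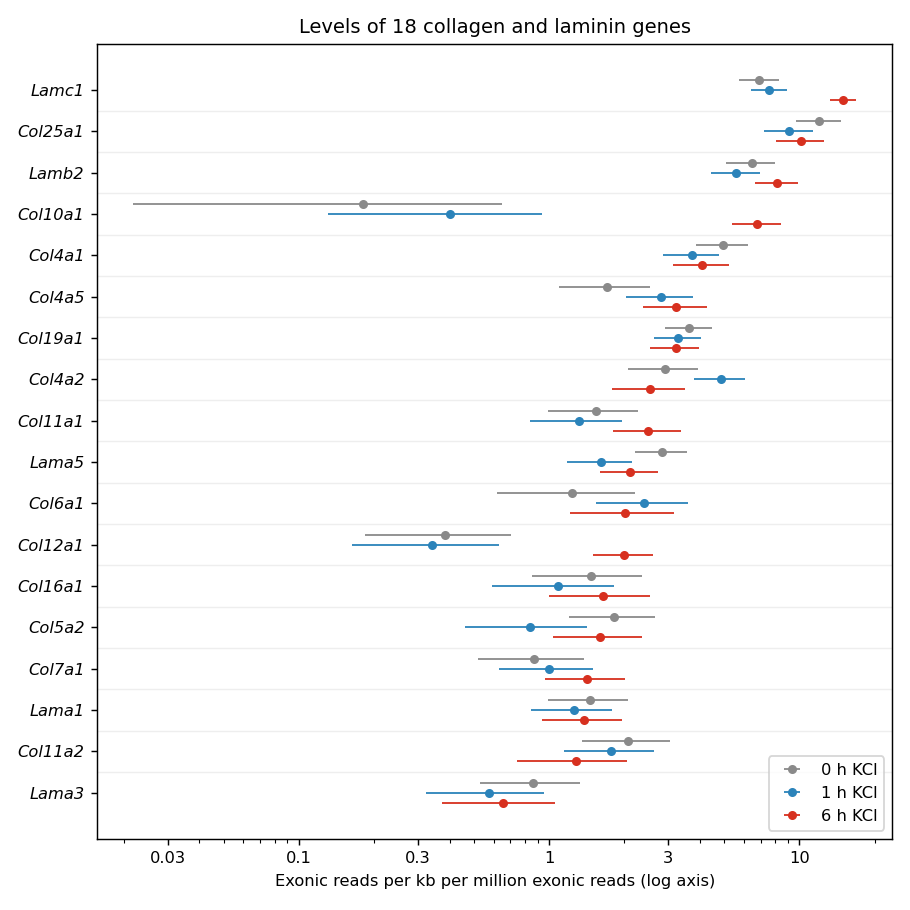
Level of each of the 18 measured chain genes at 0 h (grey), 1 h (blue) and 6 h (red) of KCl, in RPM per kb of exon on a log axis, with 95% Poisson intervals for 1 library per time. The 6 h points of Col10a1 and Col12a1 stand to the right of their earlier points with no overlap of intervals, and so does that of Lamc1.

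Col10a1 encodes the single chain of collagen X, a short-chain network collagen best known from the growth plate cartilage. It had 2, 5 and 80 exonic reads at 0, 1 and 6 h. The 6 h library stood apart from both earlier ones, and its level was 37.8-fold that at 0 h (interval 10.1 to 318) and 17.0-fold that at 1 h (interval 6.98 to 53.7). With 5 reads against 2, the counts at 1 h and 0 h were too low to compare, and the interval of their ratio ran from 0.365 to 23.4.

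The Col10a1 model on mm9 spans chromosome 10, 34109641 to 34118110, on the plus strand, with 3 exons, and lies inside Nt5dc1 on the opposite strand. All 3 exons held reads at 6 h, 72 of them in the last exon of 4117 bp and 8 in the first and second together. At 0 and 1 h the 2 and 5 reads all lay in the last exon. None of the reads crossed an exon junction. Antisense exonic reads numbered 1, 0 and 3, and Nt5dc1 itself had 0, 5 and 0 exonic reads, so reads of the opposite strand were few beside the 80. Only 61.5% of the exon bases were uniquely mappable, the lowest share among the 18 genes.

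The promoter window of Col10a1 is shown because this gene changed most, and its letters can be set beside motifs known from activity-regulated genes. It covers 250 bases before and 50 after the annotated start, from RefSeq on GRCm38.p6, chr10:34389731-34390030, plus strand, with a TATAAA box in capitals.

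Col10a1: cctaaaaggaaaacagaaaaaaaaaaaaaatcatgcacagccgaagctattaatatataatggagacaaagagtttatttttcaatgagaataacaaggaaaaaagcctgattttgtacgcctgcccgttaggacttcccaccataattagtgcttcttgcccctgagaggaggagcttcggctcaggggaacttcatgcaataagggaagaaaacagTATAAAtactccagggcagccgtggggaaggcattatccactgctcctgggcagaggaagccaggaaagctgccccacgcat

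The capitals begin 32 bases before the start. On both strands TATAAA was found in 13.6% of 32851 RefSeq promoter windows, the AP-1 motif TGANTCA in 7.81% and the cAMP response element TGACGTCA in 1.79%. Windows existed for 36 of the 50 chain genes and 13 of the 18 measured ones, and neither Col12a1 nor Lamc1 was among them. The AP-1 letters occurred in 1 of the 36 windows (Col6a1), the cAMP response element letters in 1 (Col24a1, which had at most 1 exonic read) and TATAAA in 5. No motif match means only that these letters are not in this window.

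Col12a1 encodes collagen XII, a fibril-associated collagen that coats fibrils of collagen I in tendon and other dense connective tissue. It had 10, 10 and 55 exonic reads at 0, 1 and 6 h, so the 6 h library alone was high. Its level at 6 h was 5.20-fold that at 0 h (interval 2.63 to 11.4) and 5.83-fold that at 1 h (interval 2.94 to 12.8). Reads covered 6, 6 and 23 of its 66 exons, and 1, 0 and 12 reads crossed exon junctions. Without its last exon, the remaining 65 exons held 7, 5 and 34 reads, a 4.59-fold difference between 6 h and 0 h (interval 2.004 to 12.3). Intronic reads, which report unspliced RNA, numbered 13, 10 and 31 and were 2.67-fold higher at 6 h than at 0 h (interval 1.36 to 5.57). The gene lies on chromosome 9, 79446798 to 79566485 on mm9, minus strand, with no overlapping gene model.

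No fibril-associated collagen other than Col12a1 was called in exonic reads. Col19a1 (collagen XIX) had 86, 87 and 80 exonic reads, and its ratio of 6 h to 0 h was 0.880 (interval 0.641 to 1.21). Col16a1 (collagen XVI) had 17, 14 and 20 reads, with a ratio of 1.11 at 6 h (interval 0.554 to 2.26). Both intervals contain 1, and that of Col19a1 excludes a 2-fold change in either direction. The other 6 genes of the class, from collagens IX, XIV, XX and XXII, had at most 13 exonic reads in any library.

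Lamc1 encodes the γ1 chain, which is part of most laminins. It had 118, 145 and 271 exonic reads at 0, 1 and 6 h, the most of the 50 genes at each time. At 6 h it was 2.17-fold higher than at 0 h (interval 1.74 to 2.72) and 1.98-fold higher than at 1 h (interval 1.61 to 2.44), the second of these just under the 2-fold bound. The ratio of 1 h to 0 h was 1.10 (interval 0.854 to 1.41). Reads were found in 24, 27 and 27 of the 28 exons. The last exon, of 2808 bp, held 32, 36 and 96 reads, 2.84-fold more at 6 h (interval 1.88 to 4.38), and the other 27 exons held 76, 93 and 159, 1.98-fold more (interval 1.496 to 2.64). Intronic reads numbered 113, 96 and 133, and their ratio of 6 h to 0 h was 1.32 (interval 1.02 to 1.71), below the exonic ratio without overlap of the intervals. When exonic and intronic reads were added, the 6 h ratio was 1.81 and Lamc1 was no longer called. The gene lies on chromosome 1, 155066052 to 155179916 on mm9, minus strand, with the model EG667795 on the opposite strand.

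In exonic reads, none of the measured α and β chains was called, and Lama2, Lama4 and Lamb3 had too few reads to compare. Lamb2, the β2 chain known from synaptic basement membranes at the nerve-muscle junction, had 80, 78 and 107 exonic reads, a ratio of 1.26 at 6 h (interval 0.938 to 1.71). Lamb1-1, the β1 chain gene, is outside the naming rule and had 42, 42 and 51 reads, a ratio of 1.15 (interval 0.748 to 1.77). Lama5, the α5 chain of many adult basement membranes, had 72, 46 and 57 reads, 1.76-fold fewer at 1 h than at 0 h (interval 1.20 to 2.60), which fell short of the 2-fold bound. Lama1, the α1 chain of early embryonic basement membranes, had 31, 30 and 31 reads, and Lama3, the α3 chain of epithelia, had 20, 15 and 16. The sum of all 5 α chains was 143, 101 and 117 reads. Its ratio to 0 h was 0.630 at 1 h (interval 0.483 to 0.818) and 0.774 at 6 h (interval 0.601 to 0.995). Per kb of exon, the γ chains summed to 8.11, 7.87 and 15.8 RPM at 0, 1 and 6 h. The α chains summed to 6.12, 3.93 and 4.73, lowest at 1 h. Lamb2 and Lamb3 summed to 6.66, 5.90 and 8.26.

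**Figure D2:**
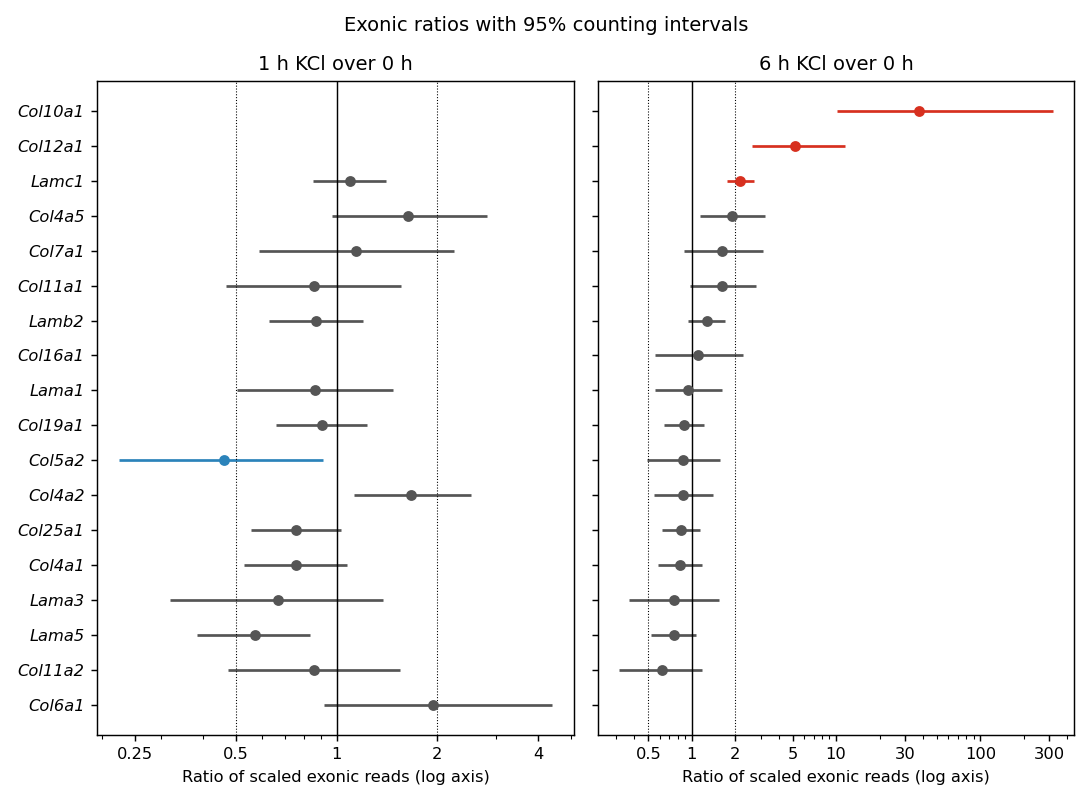
Ratio of scaled exonic reads for each measured chain gene, 1 h over 0 h (left) and 6 h over 0 h (right), on log axes with 95% counting intervals. Red points were called at least 2-fold higher and blue ones lower, dotted lines mark 0.5 and 2, and genes with under 20 reads in both libraries of a comparison have no point there.

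Collagen IV, the sheet-forming collagen of basement membranes, is made of paired chains whose genes sit head to head. Col4a1 and Col4a2 encode the common α1 and α2 chains, and Col4a5 and Col4a6 a second pair. Exonic reads of Col4a1 numbered 72, 61 and 63 at 0, 1 and 6 h, those of Col4a2 40, 75 and 37. The Col4a2 reads were thus highest at 1 h, 1.67-fold those at 0 h (interval 1.12 to 2.52), and the ratio of 6 h to 1 h was 0.523 (interval 0.343 to 0.786). Neither reached the 2-fold bound. Col4a1 did not share the 1 h level, with a ratio of 0.756 (interval 0.528 to 1.08) and no overlap with the interval of Col4a2. The last exon of Col4a2 held 14, 33 and 10 reads and the other 47 exons 24, 35 and 18. This gave ratios at 1 h of 2.10 (interval 1.09 to 4.25) and 1.30 (interval 0.752 to 2.285). Without its last exon, Col4a1 had a ratio at 1 h of 0.689 (interval 0.427 to 1.10), which overlaps that of the other 47 exons of Col4a2.

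Both promoter windows are shown because they overlap although the exonic reads of the genes differed at 1 h. Unscaled intronic reads at 0, 1 and 6 h were 42, 17 and 30 for Col4a1 and 61, 25 and 26 for Col4a2. They were thus fewer at 1 h than at 0 h in both genes. The part of the promoter in the exonic difference was not tested. The annotated starts on GRCm38.p6 are 11312805 for Col4a2 on the plus strand and 11312826 for Col4a1 on the minus strand. The 2 genes thus overlap at their starts in that annotation. The mm9 models used for counting begin at 11313024 for Col4a2 and 11312730 for Col4a1 and do not overlap. The windows were not taken from those models. The windows are chr8:11312555-11312854 on the plus strand for Col4a2 and chr8:11312777-11313076 on the minus strand for Col4a1. Capitals mark the 78 bases in both windows, which read as reverse complements of each other.

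Col4a2: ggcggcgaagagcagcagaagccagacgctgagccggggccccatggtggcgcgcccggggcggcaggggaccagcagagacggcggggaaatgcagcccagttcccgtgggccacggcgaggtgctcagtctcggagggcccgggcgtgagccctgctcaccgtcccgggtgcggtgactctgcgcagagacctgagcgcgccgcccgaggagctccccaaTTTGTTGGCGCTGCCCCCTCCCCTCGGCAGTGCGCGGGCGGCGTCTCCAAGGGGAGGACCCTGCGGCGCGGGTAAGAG
Col4a1: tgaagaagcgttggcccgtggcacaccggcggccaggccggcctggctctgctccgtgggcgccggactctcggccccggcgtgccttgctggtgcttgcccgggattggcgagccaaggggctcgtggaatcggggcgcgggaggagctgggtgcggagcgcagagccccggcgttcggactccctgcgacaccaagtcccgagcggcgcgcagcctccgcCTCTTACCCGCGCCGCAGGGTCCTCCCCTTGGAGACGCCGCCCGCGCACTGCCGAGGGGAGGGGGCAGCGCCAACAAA

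Both windows are rich in G and C, at 73.7% for Col4a2 and 74.0% for Col4a1, and neither holds TATAAA, the AP-1 motif or the cAMP response element. Col4a5, on chromosome X, had 24, 44 and 48 exonic reads, 1.89-fold more at 6 h than at 0 h (interval 1.14 to 3.23), short of the 2-fold bound. It passed that bound when the splice-library reads were left out, under scaling by total mapped reads and in the authors' coverage. Its neighbour Col4a6 had at most 6 exonic reads, and Col4a3 and Col4a4 at most 2. Added over the 6 chains, collagen IV held 141, 186 and 154 reads, with ratios of 1.18 at 1 h (interval 0.940 to 1.48) and 1.03 at 6 h (interval 0.817 to 1.31).

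Fibrillar collagens, the rope-forming group, were present at low counts. Col5a2, a chain of collagen V that limits fibril thickness, had 27, 14 and 25 exonic reads, 2.16-fold fewer at 1 h than at 0 h (interval 1.09 to 4.46) and similar at 6 h, with a ratio of 0.876 (interval 0.487 to 1.57). It was the only chain called at 1 h, and the call was lost without splice-library reads, with a ratio of 0.568, under scaling by total mapped reads, at 0.546, in the authors' coverage, at 0.560, and with intronic reads added, at 0.510. It was also lost with a minimum of 50 reads, which leaves Col5a2 out. Col11a1, a chain of the cartilage collagen XI, had 25, 24 and 43 exonic reads, and at 6 h its ratio to 0 h was 1.63 (interval 0.971 to 2.78). Its intronic reads, 17, 21 and 44, were 2.90-fold higher at 6 h (interval 1.63 to 5.42). Its partner Col11a2 had 26, 25 and 17 reads, a ratio of 0.618 (interval 0.315 to 1.18). The 8 other fibrillar chains had at most 18 reads in any library.

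Among the remaining types, Col7a1, which builds the anchoring fibrils of skin, had 18, 23 and 31 exonic reads, a ratio at 6 h of 1.63 (interval 0.883 to 3.09). Col6a1, a chain of the beaded filaments of collagen VI, had 11, 24 and 19 reads and was 1.95-fold higher at 1 h than at 0 h, but its interval ran from 0.918 to 4.40. Under scaling by total mapped reads Col6a1 was called higher at 1 h. The 3 collagen VI chains together had 16, 36 and 34 reads, a ratio of 2.01 at 1 h (interval 1.09 to 3.87) and also of 2.01 at 6 h (interval 1.08 to 3.90). Its promoter window is the one with the AP-1 letters, beginning 90 bases before the start.

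Of the 32 chains under the minimum, 9 reached 10 to 19 reads, 5 reached 4 to 9, 15 reached 1 to 3, and 3 (Col13a1, Col28a1 and Col4a3) had none in any library. The minimum lay between Col16a1 and Lama3, with 20 reads in their highest library, and Col5a3 and Lama2, with 18. Summed, these 32 genes had 133, 135 and 130 exonic reads, and the ratio of 6 h to 0 h was 0.924 (interval 0.720 to 1.19). All 50 chains together were 1.27-fold higher at 6 h than at 0 h (interval 1.16 to 1.38). Without Col10a1, Col12a1 and Lamc1, which were taken out because they were the 3 called, the ratio was 0.985 (interval 0.891 to 1.09).

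Col25a1 encodes collagen XXV, a membrane-spanning collagen of neurons also known from amyloid plaques. It had 93, 79 and 83 exonic reads at 0, 1 and 6 h, and its ratio of 6 h to 0 h was 0.844 (interval 0.620 to 1.15). Its intronic reads behaved otherwise, at 877, 511 and 343, the most of any chain gene. Scaled by TMM factors of all intronic reads, they were 2.28-fold lower at 6 h than at 0 h (interval 2.01 to 2.59) and 1.26-fold lower at 1 h (interval 1.13 to 1.41). Exonic and intronic intervals at 6 h did not overlap. The gene spans chromosome 3, 129883796 to 130299335 on mm9, plus strand, with 412082 bp of intron between 40 exons.

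At 1 h intron 2, which is 204040 bp long, differed from the rest of the gene. That intron held 414, 187 and 150 reads at 0, 1 and 6 h, a ratio of 0.615 at 1 h (interval 0.514 to 0.732). The 38 other introns held 463, 324 and 193 reads, a ratio of 0.952 at 1 h (interval 0.824 to 1.10), and the 2 intervals did not overlap. In introns 3 to 10, 11 to 20 and 21 to 39 the ratios at 1 h were 0.854, 1.02 and 0.956, each with an interval containing 1. At 6 h all blocks were low, with ratios of 0.406 in intron 2 and 0.479, 0.527 and 0.394 in the blocks that follow, and each interval lay below 1. Under scaling by exonic TMM factors the whole-gene ratio at 1 h was 0.520 in place of 0.793, and at 6 h it was 0.370 in place of 0.439.

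**Figure D3:**
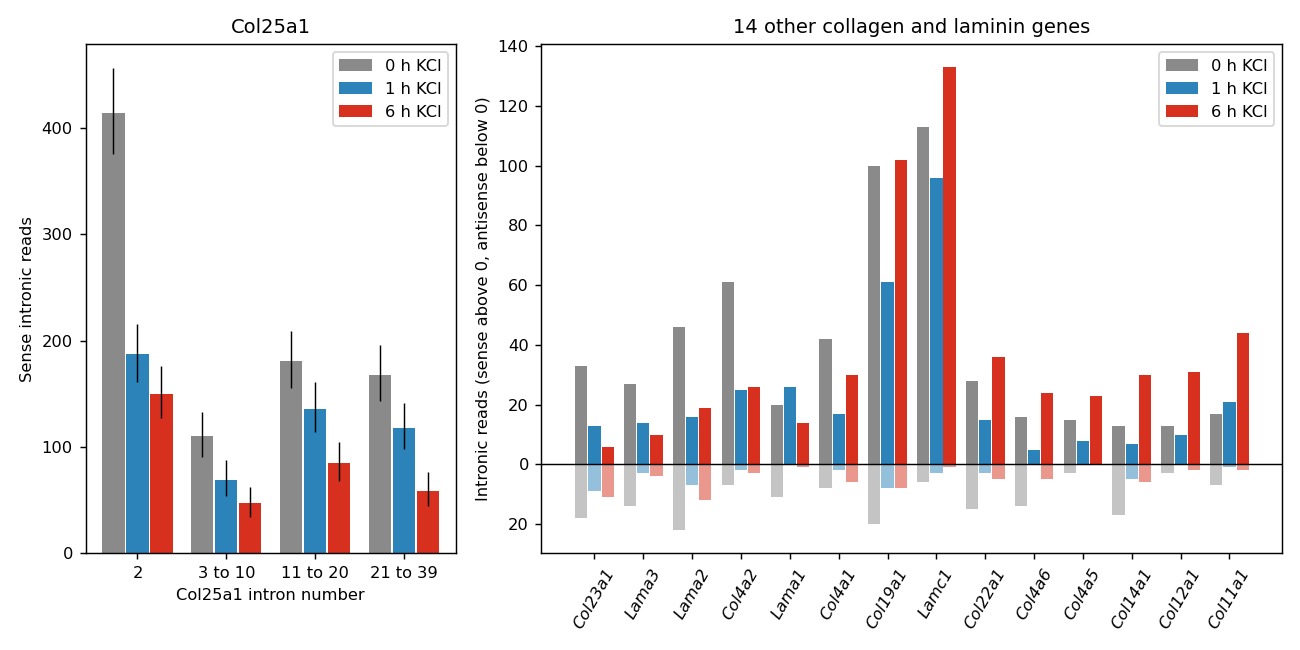
Left, sense reads in Col25a1 intron 2 and in 3 blocks of later introns at 0 h (grey), 1 h (blue) and 6 h (red), with 95% Poisson intervals. Right, intronic reads of 14 other chain genes, sense above 0 and antisense below 0 in paler colour. In each of the 14 genes the 0 h library held the most antisense reads. Over 1657 genes with long introns and no gene on the opposite strand, unscaled antisense reads per 10 kb were also highest at 0 h (1.91, 1.52 and 1.44).

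Over all chains with at least 20 intronic reads, 3 were at least 2-fold higher at 6 h than at 0 h, 5 were lower and 7 met neither condition, of 15 compared. Among all 8236 genes compared, 5.27% were higher and 5.59% lower, and among the 1662 with at least 100000 bp of intron, as all 15 chains have, 6.32% were higher and 7.52% lower. The same 8 chains were called under each of the 4 other scalings of the intronic reads. Under these scalings 3.08% to 5.59% of all genes were higher and 5.45% to 10.5% lower. Besides Col12a1 and Col11a1, Col14a1 (collagen XIV, fibril-associated) was higher, with 13, 7 and 30 reads, 2.59-fold at 6 h (interval 1.31 to 5.41). Besides Col25a1, the lower ones were Col4a2 with 61, 25 and 26 reads and Lama2 (laminin α2) with 46, 16 and 19. Col23a1 (collagen XXIII, transmembrane) was lower with 33, 13 and 6, and Lama3 with 27, 14 and 10. Of the 2 libraries compared, all 3 higher chains reached 20 reads only at 6 h. Lama2, Col23a1 and Lama3 reached 20 reads only at 0 h. All of these thus entered the comparison only through the library where they were high.

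For Col4a2 the level at 6 h was 2.09-fold lower (interval 1.30 to 3.45), with 35, 8 and 9 reads in intron 4 and 26, 17 and 17 in its other 46 introns. For Col23a1 it was 4.90-fold lower (interval 2.03 to 14.3), for Lama3 2.41-fold (interval 1.13 to 5.57) and for Lama2 2.16-fold (interval 1.24 to 3.90). Lama2 was also lower at 1 h, 2.11-fold (interval 1.17 to 3.997), the 1 lower call among 11 chains compared, with 0 higher; the shares were 6.19% lower and 7.48% higher over all genes, and 6.02% and 1.58% over those with long introns. Between 6 h and 1 h, Col12a1, Col14a1, Col4a5 and Col4a6 were higher in intronic reads and Lama1 was lower, of 12 compared. The shares were 7.07% and 5.79% of all genes and 9.42% and 2.72% of those with long introns. From 1 h to 6 h, Col12a1 went from 10 to 31 reads, Col14a1 from 7 to 30 and Col4a5 from 8 to 23. Col4a6 went from 5 to 24 and Lama1 from 26 to 14. Each of these, and Lama2 in the 1 h call, reached 20 reads only in the library where it was high.

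In reads not scaled for depth, the 0 h library held more per length in introns of genes with hardly any exonic reads. All densities here are such unscaled reads. Taken were 1657 genes with at least 100000 bp of intron and no gene on the opposite strand. Their sense intronic reads stood at 20.0, 14.2 and 20.4 per 10 kb at 0, 1 and 6 h. In the 234 of them with at most 3 exonic reads in every library, sense reads stood at 0.809, 0.375 and 0.502. Antisense reads of these 234 genes stood at 0.852, 0.481 and 0.573. Those of all 1657 stood at 1.91, 1.52 and 1.44, and those of the 24 chain genes among them at 0.519, 0.129 and 0.175. Lama2 had 0.735, 0.256 and 0.304 sense reads per 10 kb, no more than those genes, and Col23a1 and Lama3 had 1.14 and 1.13 at 0 h. Antisense intronic reads of Lama2 numbered 22, 7 and 12, those of Col23a1 18, 9 and 11, and those of Lama3 14, 3 and 4. Col25a1 stood well above that level, at 21.3, 12.4 and 8.32 sense reads per 10 kb with 23, 4 and 5 antisense reads in all, and so did Col4a2 at 4.69, 1.92 and 1.9995. Chains called higher in intronic reads also had low sense densities. They were 0.530, 0.166 and 0.795 for Col4a6, 0.723, 0.386 and 1.11 for Col4a5, and 0.629, 0.339 and 1.45 for Col14a1. Col11a1 stood at 0.931, 1.15 and 2.41, and Col12a1 at 1.20, 0.926 and 2.87. The part of the background of near-silent genes in the intronic results, higher or lower, was not tested.

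**Figure D4:**
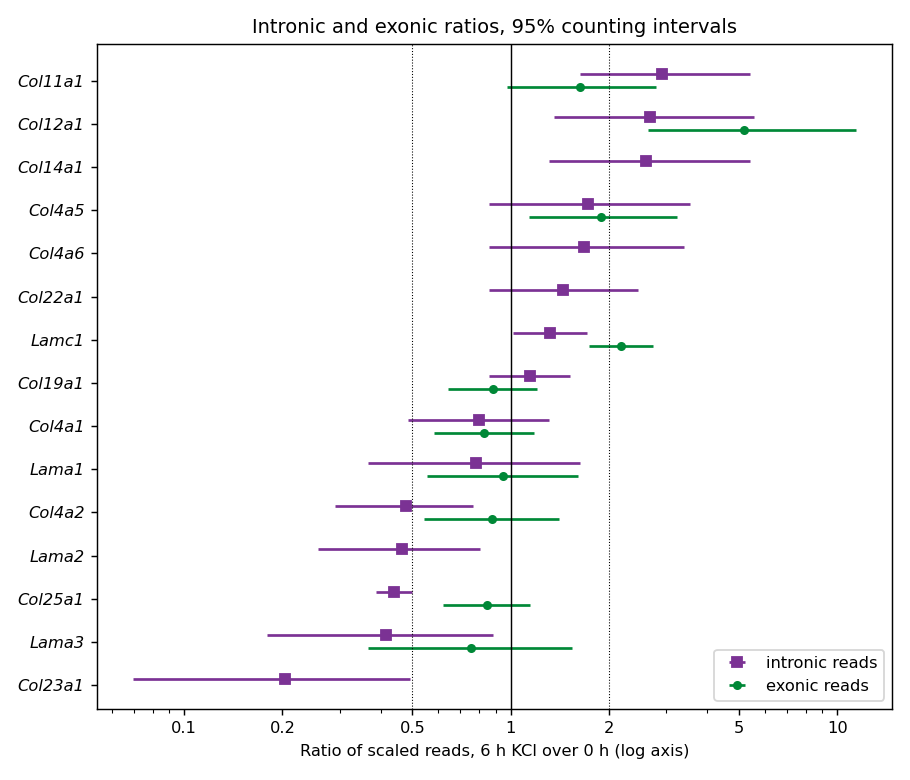
Ratio of 6 h to 0 h for intronic reads (purple squares) and exonic reads (green circles) of the 15 chain genes with at least 20 intronic reads in 1 of the 2 libraries, on a log axis with 95% counting intervals. Col25a1 and Lamc1 are the genes whose 2 intervals do not overlap; the 5 genes without a circle had under 20 exonic reads.

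Per kb of exon, the order of levels changed at its top. At 0 h Col25a1 led with 12.001 RPM per kb of exon (Poisson interval 9.69 to 14.7), apart from Lamc1 at 6.91 (interval 5.72 to 8.27). Below it each gene overlapped its neighbour, through Lamb2 at 6.44, Col4a1 at 4.93 and Col19a1 at 3.64 down to Col10a1 at 0.180. At 1 h the same overlap held from the top, with Col25a1 at 9.09 and Lamc1 at 7.57. At 6 h Lamc1 led with 15.0 (interval 13.3 to 16.9), apart from Col25a1 at 10.1 (interval 8.07 to 12.6). Lamb2 at 8.15 and Col10a1 at 6.80 (interval 5.39 to 8.46) followed, and Col10a1 stood apart from the next gene, Col4a1 at 4.08 (interval 3.14 to 5.22). Per kb of uniquely mappable exon, Col10a1 stood at 11.1 RPM at 6 h and came before Lamb2 at 8.88, after Lamc1 at 16.0 and Col25a1 at 12.5.

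Genes that fold, process, bind or cut these chains were taken from 5 lists, chosen with earlier results of these data known. Their counts at 6 h stand beside 4.92% higher and 5.42% lower over all genes. Of the 14 listed genes for collagen processing and cross-linking only 3 were measured, and 2 of these were higher at 6 h: Tll1, a tolloid-like protease that trims the ends of procollagens, and Adamts3, which trims the other end. Tll1 had 27, 30 and 147 exonic reads at 0, 1 and 6 h, 5.15-fold more at 6 h than at 0 h (interval 3.40 to 8.08), with a ratio of 0.991 at 1 h. Adamts3 had 26, 29 and 65, 2.36-fold more (interval 1.48 to 3.88). The third, the related protease Bmp1, had 68, 75 and 43, a ratio of 0.598 (interval 0.398 to 0.889). The median log2 ratio of these 3 genes at 6 h was 1.23.

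Of 11 measured genes for folding, modification and secretion, 2 were higher at 6 h, 0 lower and 9 neither, against 4.92% higher of all genes. P4ha1, a catalytic subunit of prolyl 4-hydroxylase, had 33, 68 and 105 reads, 3.01-fold more at 6 h (interval 2.02 to 4.59). Plod2, a lysyl hydroxylase that prepares collagen for cross-links, had 35, 75 and 77, 2.08-fold more (interval 1.38 to 3.20). At 1 h the ratio to 0 h was 1.84 for P4ha1 and 1.91 for Plod2, short of the 2-fold bound. The lowest ratio of the list was that of Plod1, at 0.747, and the list's median log2 ratio was 0.15 at 6 h and 0.23 at 1 h.

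Of 8 other measured basement membrane and laminin-like genes, 2 were lower at 6 h and 0 higher, against 5.42% lower of all genes. Ntn4, a netrin that binds laminin γ1, had 38, 21 and 17 reads, 2.36-fold fewer at 6 h than at 0 h (interval 1.30 to 4.47), and was also called lower at 1 h. Fbln2, the matrix adaptor fibulin 2, had 28, 32 and 14 reads, 2.12-fold fewer (interval 1.08 to 4.35). The highest ratio was that of Sparc, a collagen-binding glycoprotein, at 1.73 with 202, 282 and 370 reads. The median log2 ratio of the list was −0.12 at 6 h.

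Of 11 measured receptors, 1 was lower and 0 higher at 6 h, against 5.42% lower and 4.92% higher of all genes. Itga3, the integrin α3 chain that binds laminins, had 74, 80 and 24 reads, 3.26-fold fewer at 6 h (interval 2.03 to 5.40). Its partner Itgb1 had 310, 419 and 509 reads, a ratio of 1.55, and Itgb8 had the highest ratio, 1.68. The receptor median log2 ratio was −0.03. None of 9 matrix proteases and inhibitors was called at 6 h. Their ratios ran from 0.508 for the membrane protease Mmp17 to 1.17 for Timp3. Apart from Ntn4, no gene of the 5 lists was called at 1 h.

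**Figure D5:**
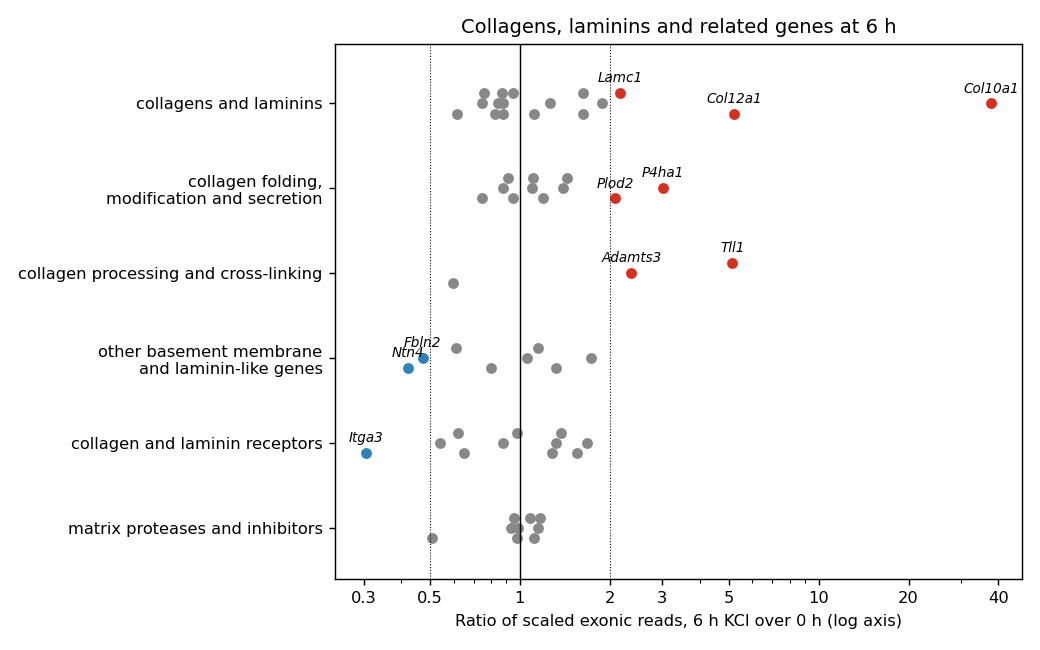
Ratio of exonic reads, 6 h over 0 h on a log axis, for each measured chain gene and each measured gene of 5 related lists; red was called at least 2-fold higher and blue lower, and dotted lines mark 0.5 and 2. The named genes are those called, from Itga3 at 0.307 to Col10a1 at 37.8.

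Some markers of other cells were called at 6 h as well, beside 4.92% higher and 5.42% lower of all genes. Of the 15 measured markers of MGE-derived interneurons, 0 were called. Tagln, listed for mural cells, had 4, 0 and 29 reads and was called higher. It counted as measured only through the 6 h library, where it was high. The other measured mural markers were not called, with 96, 103 and 70 reads for Notch3 and 20, 13 and 14 for Pdgfrb, and Acta2, Myh11 and Rgs5 had at most 2 in any library. The glial marker Vim had 672, 868 and 1491 reads and was called higher, Hes5 of the same list was called lower with 41, 12 and 14, and 10 of those 12 markers met neither condition. Pdgfra, which stands in both the oligodendrocyte and the meningeal and fibroblast list, was called lower with 90, 80 and 43 reads. Olig2 of the oligodendrocyte list was called higher, with 50, 59 and 108 reads, 2.04-fold (interval 1.45 to 2.92). In that list 4 of 6 measured markers met neither condition. Igfbp2 of the meningeal and fibroblast list had 168, 198 and 321 reads and was not called. The part of other cell types in the 6 h levels of Col10a1, Col12a1 and Lamc1 was not tested.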

How the data were processed

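Total RNA was depleted of ribosomal RNA, ligated with its strand kept and sequenced on a SOLiD instrument, per the labels' protocols. The genome build is mm9, per the submitters' processing notes; for the aligner, nothing is given in the sources used here. Per the file headers and logs, unique reads of 35 bp with at most 3 mismatches were kept, repeats included. The authors deposited raw counts per gene by strand for exons (splice-library reads included) and introns, and a coverage signal per gene scaled to 10000000 mapped reads; the coverage served as an alternative only.

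Counts were scaled by TMM (edgeR 4.0.16), separately for exonic and intronic reads, and compared as ratios with exact Clopper-Pearson 95% intervals, which cover counting error only. The intervals take each read as independent, while mapped reads numbered 2.45, 2.60 and 2.33 per distinct position at 0, 1 and 6 h. Log2 medians used a pseudocount of 0.5 reads. DESeq2 1.42.0 size factors were an alternative. The calling rule was checked on simulated counts with independent reads. The chain genes and the lists were chosen with earlier results of these data known. Every measured chain gene is named; in the related lists, the called genes and each list's extremes are. Some marker genes were added to the text after their values were seen. Of the 171 list entries, 167 matched by symbol, 3 by gene identifier and 1 was not found.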

Additional observations from a re-analysis of the deposited data

How the results depend on the processing

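With 1 library per time, no library could be left out, and no test between times exists. No paired analysis was possible because each time has 1 library. At 6 h against 0 h the number of chains higher in exonic reads was 3 or 4 under every alternative. Col10a1 and Col12a1 were among them each time. The share of all genes called higher ran from 3.83% with no minimum to 11.6% at 1.5-fold. With intronic reads added Lamc1 was not called higher, and 2 chains (Col23a1 and Col25a1) were called lower, against 5.34% of all genes. At 1 h against 0 h, 1 chain was called higher instead of 0 under total mapped reads, the authors' coverage, added intronic reads (Col6a1 in each) and a 1.5-fold bound (Col4a2). The shares of all genes called higher were 2.93%, 3.01%, 2.33% and 3.76%, in place of 1.58%. The lower calls at 1 h, 1 in the main comparison, were 0 under total mapped reads, coverage, a minimum of 50 reads and without splice-library reads. The shares of all genes were 0.515%, 0.545%, 0.656% and 1.5%, beside 1.43% in the main comparison. Lower calls were 2 with intronic reads added (Col16a1 and Lama2, without Col5a2), 2 at 1.5-fold, and 3 with no minimum. The shares there were 2.56%, 5.3% and 1.54%. At 6 h against 1 h, higher calls went to 8 with intronic reads added, and to 4 at 1.5-fold and without splice-library reads. The shares of all genes were 4.18%, 9.88% and 4.26%, beside 4.17% in the main comparison. Lower calls were 1 in place of 0 (Col4a2) under total exonic reads, total mapped reads, coverage, 1.5-fold and without splice-library reads. The shares there were 6.19%, 6.11%, 6.07%, 10.9% and 4.72%, beside 4.63%. Scaling by total mapped reads set the median log2 ratio of all genes at 0.25 at 1 h and 0.15 at 6 h, and coverage at 0.24 and 0.15, so the chains' median at 1 h under coverage, 0.06, lies below that of all genes, 0.24. For intronic reads at 1 h, lower calls were 4 under total intronic or total mapped reads and 6 under exonic TMM factors. The shares of all genes called lower were then 10.3%, 15.7% and 27.2%, in place of 6.19%. Exonic TMM factors set the median of all genes at −0.66. At 6 h against 1 h the lower call was lost (0) under total mapped reads and exonic TMM factors, against 3.18% and 2.65% of all genes. Higher calls there were 5 under total intronic reads and 6 under total mapped reads or exonic TMM factors, in place of 4. The shares of all genes called higher were 7.8%, 12.9% and 15.5%, in place of 7.07%. Of 420 single-gene values under alternatives, 411 stayed within the counting interval and none of the called ones changed sign. The alternatives for intronic reads and for splice-library reads were chosen after seeing the data. Depth limits most chains: 32 of 50 had under 20 exonic reads in every library. The cause of these shifts was not tested.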
